A study of Mus musculus with 6 samples.

Results

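The transcript levels of 10 genes, the subunits and inhibitors of nuclear factor κB (NF-κB), were examined in hematopoietic stem cells (HSCs) with and without IRF1. They comprise the 5 subunit genes *Nfkb1*, *Nfkb2*, *Rel*, *Rela* and *Relb*, and 5 IκB family genes, *Nfkbia*, *Nfkbib*, *Nfkbie*, *Nfkbiz* and *Bcl3*. They were chosen by family membership, with earlier results of these data known, and found by symbol. All 10 were present among the 26264 genes of the table. Bulk RNA-seq had been performed on untreated bone marrow HSCs of 8-week-old mice, 3 wild-type (WT, C57Bl/6) and 3 *Irf1-/-* (IRF1 KO, allele *Irf1* tm1Mak on a B6.129S2 background), with replicates numbered 2, 3 and 4 in each genotype. The cells were sorted as Lineage-Sca1+cKit+CD150+CD48-. IRF1 is a transcription factor that acts downstream of interferons and other inflammatory signals, and the comparison asks how HSC transcripts differ when it is missing. The knockout covers the whole body, so HSCs of these mice developed among other cells without IRF1.

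NF-κB is a family of transcription factors that act as dimers of related subunits, which bind κB sites in DNA. In resting cells, IκB proteins hold most dimers in the cytoplasm, and signals from TNF, IL-1 or Toll-like receptors lead to IκB degradation and let the dimers enter the nucleus, where they also switch on several genes of their own inhibitors. In HSCs, the pathway is known for its part in the response to infection and inflammation and in stem cell maintenance.

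Reads on genes numbered 59658080, 45332573 and 43267486 in WT libraries 2, 3 and 4, and 43138521, 57281017 and 45129929 in *Irf1-/-* libraries 2, 3 and 4. Values are given as normalized counts, that is, reads per gene divided by 1 size factor per library. Over the 10 genes and 6 libraries, the reads behind a value ranged from 301 for *Nfkbiz* to 17157 for *Rela*. All 10 genes were among the 17404 genes tested, those whose normalized counts averaged 10 or more. Log2 fold changes are *Irf1-/-* over WT on the log2(normalized count + 1) scale, with P values from limma adjusted over all tested genes. A gene passed the test at an adjusted P under 0.05, and was called if its absolute log2 fold change was also above 0.58.

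The targeted gene was examined first. *Irf1* normalized counts were 10122, 11120 and 12057 in WT libraries 2, 3 and 4, and 9267, 9524 and 9287 in *Irf1-/-* libraries 2, 3 and 4. The *Irf1-/-* values were lower without overlap, at 84.3% of the WT mean, but *Irf1* did not pass the test (log2 fold change −0.24 ± 0.088 SE, limma adjusted P = 0.17). The table holds 1 total per gene and cannot show which exons were read, so these reads do not check the loss of functional IRF1.

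The HSC gene *Kit* was abundant in all 6 libraries, at 77902 to 88715. WT library 4 stood apart through several neutrophil genes, though not through all genes of the granulocyte list. *Elane* and *Prtn3* were highest in *Irf1-/-* library 4 (67.5 and 9879, against 64.5 and 6445 in WT library 4). *S100a8* was at 1033 in WT library 4 and between 13.5 and 110 in the other 5, *Ngp* was at 2535 against 24.8 to 126.6, and *Ly6g* was at 46.3 against at most 1.07. For this reason, calls of the genes listed here that changed without WT library 4 are given with and without it. Because the RNA is from bulk cells, fewer cells of a type and less RNA per cell cannot be told apart for any gene described here.

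Among the 10 genes, *Bcl3* rose in *Irf1-/-* HSCs and was the only gene of the group to pass the test with limma, edgeR and each of 6 fits that left out 1 library. The exception was limma without an intensity trend, in which *Bcl3* did not pass. This is 1 of 10 genes called higher, where 0.96% of all tested genes were called higher. Since the 10 genes were chosen with earlier results of these data known, such shares are not an independent comparison. With adjusted P alone, 1.73% of tested genes were higher and 1.49% lower. The values of 3 of the 10 genes, *Relb*, *Nfkbiz* and *Bcl3*, were higher in all *Irf1-/-* libraries than in any WT library, where 10.6% of tested genes were, and those of *Nfkbib* alone were lower without overlap, where 9.27% were. The median log2 fold change was 0.03 over the 10 genes and −0.00276 over all tested genes.

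*Bcl3* encodes a nuclear IκB protein that binds p50 and p52 homodimers on DNA and can either activate or repress their targets. Normalized counts of *Bcl3* were 1822, 1757 and 1610 in WT libraries 2, 3 and 4, and 2484, 3419 and 3208 in the *Irf1-/-* libraries of the same numbers. The lowest *Irf1-/-* value, in library 2, was still above the highest WT value. The mean was 1730 ± 108 in WT and 3037 ± 491 in *Irf1-/-* HSCs (SD, n = 3 each), a ratio of 1.76. The log2 fold change was 0.80 ± 0.12 (SE), with a 95% confidence interval of 0.54 to 1.06, and the limma adjusted P was 0.00251. Without WT library 4, the log2 fold change was 0.75 with a limma adjusted P of 0.00759. edgeR on the recovered reads gave an adjusted P of 0.00191 and DESeq2 gave 5.74e-08. The call was lost in limma without the intensity trend (adjusted P = 0.171), a fit in which 40 of 17404 genes were called in all.

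*Nfkbiz* encodes IκBζ, another nuclear IκB protein, which is induced by IL-1 and Toll-like receptor signals and is needed for part of their secondary response. It was at 351, 339 and 410 normalized counts in WT libraries and at 602, 423 and 592 in *Irf1-/-* libraries. The libraries did not overlap, although *Irf1-/-* library 3 was close to WT library 4. Its log2 fold change was 0.54 (95% confidence interval 0.14 to 0.94), and the gene did not pass with limma (adjusted P = 0.144) or edgeR (adjusted P = 0.137), while it did with DESeq2 (adjusted P = 0.0395). With 301 to 570 reads per library, it was the most thinly covered gene of the family.

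The cytoplasmic inhibitors gave another picture. *Nfkbia*, which encodes IκBα, the inhibitor that is resynthesized fastest after NF-κB activation, was at 7762, 8341 and 8300 in WT and at 8037, 7945 and 8145 in *Irf1-/-* libraries. These ranges overlapped, and the 95% confidence interval of the log2 fold change of −0.02 ran from −0.19 to 0.16. *Nfkbie*, the gene of IκBε, was at 2311, 2294 and 2382 in WT and at 2385, 2338 and 2293 in *Irf1-/-* libraries. The WT values lay inside the range of the *Irf1-/-* values, and the log2 fold change of 0.01 had an interval of −0.19 to 0.20. *Nfkbib*, the gene of IκBβ, which binds NF-κB dimers more stably, was at 2488, 2466 and 2404 in WT libraries and at 2012, 2332 and 2121 in *Irf1-/-* libraries. Each *Irf1-/-* value was below each WT value, but at 87.9% of the WT mean the difference did not pass (log2 fold change −0.19, interval −0.40 to 0.02, limma adjusted P = 0.376). The signs of the differences of *Nfkbia* and *Nfkbie* depended on the scaling, turning under quantile normalization for *Nfkbia* and under median centring for *Nfkbie*.

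*Nfkbid*, the gene of IκBNS and a further nuclear IκB family gene outside the 10, was at 787, 861 and 922 in WT and at 1048, 1028 and 1002 in *Irf1-/-* libraries. Its libraries did not overlap either, and it did not pass the test (log2 fold change 0.26, limma adjusted P = 0.31). The nuclear IκB genes *Bcl3*, *Nfkbiz* and *Nfkbid* were thus higher without overlap in 3 of 3 cases, with a median log2 fold change of 0.54, and the cytoplasmic IκB genes *Nfkbia*, *Nfkbib* and *Nfkbie* in 0 of 3, with a median of −0.02, where 10.6% of all tested genes were higher without overlap. Of these 6 genes, *Bcl3* alone passed in limma. *Nfkbil1*, listed beside *Nfkbid* as IκB-related, did not pass either (log2 fold change 0.13). The division into nuclear and cytoplasmic genes was made after the values were seen, and the difference between the groups was not tested.

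Among the subunits, *Rela* and *Nfkb1* encode p65 and p50, which form the most common dimer of the canonical pathway. *Rela* was at 12349, 13044 and 11577 in WT and at 12891, 14826 and 12599 in *Irf1-/-* libraries. Only library 3 of the *Irf1-/-* mice lay above the highest WT value. The log2 fold change was 0.12 (95% confidence interval −0.07 to 0.32, limma adjusted P = 0.583). *Nfkb1* was at 11163, 12046 and 11698 in WT and at 11357, 11011 and 10567 in *Irf1-/-* libraries. The groups overlapped, and the log2 fold change was −0.08 (interval −0.26 to 0.09, limma adjusted P = 0.696). For both genes, the intervals bound the size of a difference but do not show that there was none.

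*Rel* encodes c-Rel, best known from lymphocyte activation. Its values of 1026, 649 and 822 in WT libraries spanned those of the *Irf1-/-* libraries, 736, 739 and 867. The spread between WT mice was 22.7% of the mean, the widest of the 10 genes in WT, and the log2 fold change was −0.07 (interval −0.43 to 0.29, limma adjusted P = 0.899). It turned to 0.0911 without WT library 2.

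*Relb* and *Nfkb2* encode RelB and the p100 precursor of p52, the dimer of the noncanonical pathway. *Relb* was at 1086, 1028 and 996.2 in WT and at 1228, 1177 and 1136 in *Irf1-/-* libraries. All *Irf1-/-* values were above all WT values, with means of 1180 ± 46.3 and 1037 ± 45.7 (SD, n = 3 each). The log2 fold change of 0.19 did not pass (interval −0.06 to 0.43, limma adjusted P = 0.48). *Nfkb2* was at 1898, 1725 and 1679 in WT and at 1715, 2268 and 1593 in *Irf1-/-* libraries. Library 3 of the *Irf1-/-* mice was high and the other two lay within or below the WT range, and the log2 fold change of 0.06 (interval −0.22 to 0.34, limma adjusted P = 0.896) turned to −0.0943 without it. In limma, 0 of 5 subunit genes passed, and 0 had an unadjusted P under 0.05; edgeR and DESeq2 also passed 0 of 5.

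To compare the genes with each other, normalized counts were divided by transcript length in kilobases. Per kilobase, *Nfkbia* was the most abundant of the 10 genes in WT HSCs (5158 ± 205, SD, n = 3), followed by *Rela* (4537 ± 270) and *Nfkb1* (2826 ± 108). *Nfkbib* (1190 ± 21.1) came next, and then *Nfkbie* (962 ± 19.2) and *Bcl3* (935 ± 58.5), whose WT libraries overlapped. *Nfkb2* (551 ± 35.9), *Relb* (386 ± 17.0), *Rel* (297 ± 67.4) and *Nfkbiz* (89.1 ± 9.22) made up the low end. Apart from *Nfkbie* and *Bcl3*, neighbours in this order did not overlap between WT libraries. *Nfkbia* stood at the 94.7th percentile of the 13862 tested genes with a known length, and *Nfkbiz* at the 33.4th.

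In *Irf1-/-* HSCs, *Bcl3* stood at 1642 ± 265 per kilobase, above *Nfkbib* (1046 ± 79.1) and *Nfkbie* (966 ± 18.9), which then overlapped each other. The order of the 9 genes other than *Bcl3* was the same in both genotypes, with *Nfkbia* (5100 ± 63.5) and *Rela* (4948 ± 446) overlapping in *Irf1-/-* libraries. *Bcl3* made up 11.2% ± 0.847 (SD) of the summed IκB family level per kilobase in WT and 18.4% ± 2.42 in *Irf1-/-* libraries. Relative to *Nfkb1*, the gene of its partner p50, its level per kilobase was 0.363, 0.325 and 0.306 in WT libraries 2, 3 and 4 and 0.487, 0.691 and 0.676 in *Irf1-/-* libraries. Relative to *Nfkb2*, the gene of its partner p52, the ratio was 1.66 to 1.76 in WT and 2.51 to 3.49 in *Irf1-/-* libraries. The ratio of *Bcl3* to either partner gene was therefore higher in every *Irf1-/-* library than in any WT library.

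The summed level of all 5 inhibitors was 8334 ± 161 per kilobase in WT and 8884 ± 294 in *Irf1-/-* libraries, without overlap. That of the 4 inhibitors other than *Bcl3* was 7399 ± 199 per kilobase in WT and 7242 ± 40.7 in *Irf1-/-* libraries, and the groups overlapped. Summed over all 5 subunits, the level was 8599 ± 295 in WT and 8913 ± 569 in *Irf1-/-* libraries, again with overlap. *Rela* made up 52.7% ± 1.34 of the subunit sum in WT and 55.5% ± 1.56 in *Irf1-/-* libraries, without overlap (at most 54.1% in WT, at least 54.2% in *Irf1-/-*). No test was made of these shares and sums.

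The genes next to the 10 NF-κB genes were then examined, taking the 3 nearest tested genes on each side in the gene order of assembly GRCm38.p6. Of 59 such genes, 2 passed the test, near the share of all tested genes that passed (3.22%), and both lie close to *Bcl3* on chromosome 7. *Bcam*, which encodes a laminin-binding adhesion protein, was at 987, 967 and 876 in WT libraries and at 1718, 1974 and 1467 in *Irf1-/-* libraries. It rose by a log2 fold change of 0.86 ± 0.13 (SE, limma adjusted P = 0.00231), close to that of *Bcl3* itself. *Nectin2*, the gene of a cell adhesion molecule, was at 193, 177 and 292 in WT and at 575, 415 and 366 in *Irf1-/-* libraries. It rose by 1.04 ± 0.24 (limma adjusted P = 0.0316), a call that was lost without WT library 2 (limma adjusted P = 0.0857) or 3 (0.123) and without *Irf1-/-* library 2 (0.158) or 3 (0.0612). In limma without the intensity trend, neither *Bcam* nor *Nectin2* passed (adjusted P = 0.127 and 0.259).

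Around *Bcl3*, 5 of 6 neighbours were higher in *Irf1-/-* libraries without overlap, namely *Nectin2*, *Bcam*, *Gm16174*, *Ceacam16* and *Pvr*, and *Tomm40* was lower, where 10.6% of all tested genes were higher and 9.27% lower without overlap. *Gm16174* and *Ceacam16* had no normalized count above 38.4 and did not pass (limma adjusted P = 0.402 and 0.299). *Pvr* did not pass with all libraries (log2 fold change 0.63, limma adjusted P = 0.175), but did without WT library 4 (log2 fold change 0.853, adjusted P = 0.0417). Of the 53 neighbours of the other 9 genes only, 4 were higher and 6 lower without overlap. *Bcam*, *Nectin2* and the other neighbours of *Bcl3* were chosen after their values had been seen. *Relb* lies on the same chromosome with 5 tested genes between it and *Bcl3*. *Gm16174* overlaps *Bcl3*, and because the strand setting of the read counting is not known, reads of these genes may have been mixed, although *Gm16174* held at most 35.3 normalized counts.

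By the root mean square difference of log2 levels, centred per gene, over the 6 libraries, the 5 of 12059 genes closest to *Bcl3* were *Hid1* (0.0826), *Man1c1* (0.111), *Fcer1g* (0.116), *Hoxa3* (0.119) and *Trim62* (0.127). Since they were selected for a profile like that of *Bcl3*, a difference between genotypes in the same direction follows from the selection, and their P values are no separate finding. *Hid1* rose by 0.66 on the log2 scale (limma adjusted P = 0.00235) and *Fcer1g*, the common γ chain of Fc receptors, by 0.65 (limma adjusted P = 0.00689). *Man1c1* (0.67, limma adjusted P = 0.0102) and *Trim62* (0.71, limma adjusted P = 0.0138) rose as well, the latter not without *Irf1-/-* library 3 (0.0545). *Hoxa3* was at 163 in WT and 271 in *Irf1-/-* HSCs on average and did not pass (limma adjusted P = 0.109).

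The rest of the pathway was followed through 92 genes in lists by role, of which 87 were tested. *Lta*, *Cxcl1*, *Cxcl2*, *Ccl20* and *Bcl2a1a* were below the filter. Of the 87 genes, 7 rose and 1 fell with limma, that is, 8.05% passed upward where 1.73% of all tested genes did. Because the lists were chosen with earlier results of these data known, these shares are not an independent comparison. The median log2 fold change of the 87 genes was 0.04, beside −0.00276 for all tested genes. The genes that rose were *Tnfrsf1b* and *Il1r1* among the receptors, *Map3k14* and *Map3k8* among the kinases, *Tnip1* among the negative regulators, and *Ier3* and *Traf1* among the inducible targets. *Cxcl10* fell.

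Of 10 receptors, 2 rose. *Il1r1* encodes the signaling receptor of IL-1, and was at 647, 726 and 808 in WT and at 1406, 1334 and 952 in *Irf1-/-* libraries. *Il1r1* rose by 0.74 ± 0.16 on the log2 scale (SE, limma adjusted P = 0.0217). It no longer passed without WT library 2 (limma adjusted P = 0.0751) or 3 (0.0641) or without *Irf1-/-* library 2 (0.115) or 3 (0.0714). *Tnfrsf1b*, the gene of TNF receptor type II, was at 10430, 9999 and 9707 in WT and at 11577, 14102 and 13141 in *Irf1-/-* libraries. Its log2 fold change was 0.36 ± 0.091 (limma adjusted P = 0.0473), close to the threshold. Left out in turn, WT libraries 2, 3 and 4 gave limma adjusted P values of 0.116, 0.126 and 0.0619, and *Irf1-/-* libraries 3 and 4 of 0.118 and 0.204, and without a filter on low values it was 0.0655, so the call depended on each of these. *Tnfrsf11a*, the gene of the receptor RANK, had a large but variable difference (183 ± 102 in WT, 275 ± 98.1 in *Irf1-/-* HSCs, SD, n = 3) and did not pass.

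None of the 18 adaptors and ubiquitin ligases passed with limma, where 2 had an unadjusted P under 0.05. *Irak2*, an adaptor kinase of the IL-1 receptor, was just outside, with 1132 ± 96.9 in WT and 1607 ± 227 in *Irf1-/-* HSCs (0.50 on the log2 scale, limma adjusted P = 0.0527). edgeR passed 1 gene of this list, *Irak2* (adjusted P = 0.0454), and DESeq2 passed 2, among them *Irak2* (adjusted P = 0.00508). Leaving out 1 library let *Irak2* pass in limma without WT library 4 (adjusted P = 0.0326) or *Irf1-/-* library 3 (0.0307). *Irak2* also passed in limma with a pseudocount of 5 (adjusted P = 0.0489), a filter at 50 (0.0418) or a replicate block (0.0224). *Rbck1*, part of the linear ubiquitin ligase, had the highest mean normalized count of this list over all libraries and did not pass (limma adjusted P = 0.561). In *Irf1-/-* HSCs alone, *Irak1* was higher, at a mean of 18532 against 18050 for *Rbck1*.

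Of 11 kinases, 2 rose, *Map3k14* and *Map3k8*. *Map3k14* encodes NIK, the kinase that starts the noncanonical pathway, and was at 1176, 930 and 1064 in WT and at 1483, 1423 and 1529 in *Irf1-/-* libraries. *Map3k8* encodes TPL2, which is held by the p105 product of *Nfkb1*, and was at 698, 745 and 862 in WT and at 1266, 951 and 1305 in *Irf1-/-* libraries. The groups did not overlap for either gene. The log2 fold changes were 0.49 ± 0.12 and 0.60 ± 0.15 (SE), with limma adjusted P values of 0.0427 and 0.0433. Of the 6 fits that left out 1 library, *Map3k14* passed only in that without WT library 4, and its limma adjusted P was 0.0518 and 0.176 without WT libraries 2 and 3, and 0.127, 0.0679 and 0.178 without *Irf1-/-* libraries 2, 3 and 4. *Map3k8* did not pass without WT library 2 (limma adjusted P = 0.151) or 3 (0.134) or *Irf1-/-* library 2 (0.173) or 4 (0.206), nor under quantile normalization (0.0572) or median centring (0.0537). *Ikbkb*, the gene of the main IκB kinase of the canonical pathway, was at 8290 ± 1099 in WT and 8386 ± 565 in *Irf1-/-* HSCs, a difference within the spread whose sign turned under median centring.

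The 5 genes of the SCF ubiquitin ligase that marks IκB for degradation all had negative log2 fold changes, between −0.15 for *Btrc* and −0.09, and 0 of them passed in limma, edgeR or DESeq2, with 0 at an unadjusted P under 0.05. *Rbx1* was at 7445 ± 575 in WT and 6789 ± 463 in *Irf1-/-* HSCs, and *Skp1*, the most abundant of the 5 by normalized count, at 17780 ± 1162 and 16655 ± 1222 (SD, n = 3).

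Of 15 feedback and negative regulators, *Tnip1* alone rose. It encodes ABIN1, which binds A20 and polyubiquitin chains and restrains NF-κB activation. *Tnip1* was at 2998, 3176 and 2936 in WT and at 4114, 4087 and 4278 in *Irf1-/-* libraries, with a wide gap between the groups and little spread within them. It rose by 0.45 ± 0.088 on the log2 scale (SE, limma adjusted P = 0.0117), and the gene did not pass without WT library 2 (limma adjusted P = 0.0571) or *Irf1-/-* library 4 (0.0772). *Tnip1* lies on chromosome 11 like *Irf1*, with 15 tested genes between them, of which 2 passed the test. That is 13.3% of the 15, against 3.22% of all tested genes, and whether sequence flanking the targeted allele affects the level of *Tnip1* was not tested. *Rel* and *Map3k14* are on the same chromosome, with 169 and 807 tested genes between them and *Irf1*. Within the list, *Tnip2* (3569 ± 43.1 and 4132 ± 218) and *Tax1bp1* (20734 ± 1281 and 19414 ± 1679, WT and *Irf1-/-* HSCs, SD, n = 3) did not pass.

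Of 26 tested inducible targets, 2 rose and 1 fell. *Ier3*, an early response gene that is a direct NF-κB target, was at 2266, 2043 and 2386 in WT and at 3303, 2706 and 3505 in *Irf1-/-* libraries. *Traf1*, the gene of a TNF receptor adaptor, was at 1099, 1091 and 1159 in WT and at 1492, 1538 and 1555 in *Irf1-/-* libraries. Neither gene overlapped between genotypes, and *Traf1* varied little within them. Their log2 fold changes were 0.50 ± 0.11 and 0.45 ± 0.11 (SE, limma adjusted P = 0.0285 and 0.0356). *Ier3* did not pass without WT library 2 (limma adjusted P = 0.0722) or 3 (0.118) or *Irf1-/-* library 2 (0.12) or 4 (0.154). Of the same 6 limma fits, *Traf1* passed only in that without WT library 4, with adjusted P values of 0.13 and 0.123 without WT libraries 2 and 3, and 0.0932, 0.0728 and 0.154 without *Irf1-/-* libraries 2, 3 and 4.

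*Cxcl10* encodes a chemokine that interferons and NF-κB induce together. It was at 272, 81.1 and 723 in WT libraries and at 34.1, 24.2 and 47.8 in *Irf1-/-* libraries, so it fell from a variable WT level to 9.86% of the WT mean. The log2 fold change was −2.85 ± 0.59 (SE, limma adjusted P = 0.0179). WT library 4 held the highest value, and without it the log2 fold change was −2.09 (limma adjusted P = 0.0355). The call was lost without *Irf1-/-* library 2 (limma adjusted P = 0.0713) or 3 (0.0603). *Plau* had the next largest difference (3.42 ± 1.93 in WT and 24.0 ± 20.4 in *Irf1-/-* HSCs) on few reads and did not pass. *Myc*, the most abundant target by normalized count, was at 25735 ± 4600 and 26814 ± 1858 (SD, n = 3), a difference within the spread.

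Taken without WT library 4, 10 of the 87 pathway genes passed in place of 8. *Tnfrsf1b* no longer passed, and *Irak2*, *Chuk* and *Icam1* did. *Chuk*, the gene of IκB kinase α, was at 3033, 2930 and 2053 in WT and at 2152, 2337 and 2171 in *Irf1-/-* libraries. WT library 4 held the lowest value of all 6, and the log2 fold change was −0.25 with it (limma adjusted P = 0.406) and −0.43 without it (limma adjusted P = 0.0293). *Icam1*, the gene of an adhesion molecule among the inducible targets, was at 5695, 5613 and 6657 in WT and at 7066, 7488 and 8413 in *Irf1-/-* libraries. The groups did not overlap, and the log2 fold change was 0.35 with WT library 4 (limma adjusted P = 0.0714) and 0.43 without it (limma adjusted P = 0.0214). *Chuk* and *Icam1* were chosen after their values had been seen. *Bcl3* was again the only gene among the 10 subunit and inhibitor genes. Without the other libraries, between 1 (WT library 2) and 4 (*Irf1-/-* library 3) pathway genes passed, with 3 without WT library 3 and 2 without *Irf1-/-* library 2 or 4. The calls of single pathway genes thus depended more on single libraries than that of *Bcl3*. In limma without the intensity trend, 0 of the 87 passed; 17 had an unadjusted P under 0.05 with the trend, and edgeR passed 9 and DESeq2 13.

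Promoter sequence was read for the genes that had an entry in a RefSeq table of assembly GRCm38.p6, as the 250 bases before each transcription start. Of the 10 genes, 7 had at least 1 entry, with 9 windows in all. The windows were searched on both strands for the κB motif and for the IRF element GAAANNGAAA, and the share of all 32851 windows with a match was 3.90% for the κB motif and 2.98% for the IRF element. The κB motif was found in 6 of the 9 windows, those of *Nfkb2*, *Nfkbia*, *Nfkbie* and *Rel*, and the IRF element in 0 of 9. Several of the windows with a κB match were of *Nfkb2*, and some of its windows share bases. The share of windows is therefore not a share of genes. The windows of *Bcl3*, *Rela* and *Nfkbib* held neither. A match describes letters only, and no match says only that these letters are not in the window.

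The promoter of *Bcl3*, the gene that rose, is shown with those of *Nfkbia*, *Nfkb2* and *Rel*, which had κB matches and did not pass the test. Capitals mark κB matches, and matches that overlap on the same or opposite strands run together. The windows are chr7:19822756-19823005 (minus strand), chr12:55492648-55492897 (minus strand), chr19:46304487-46304736 (plus strand, the most upstream of 3 starts) and chr11:23770970-23771219 (minus strand), each written in the direction of its gene.
*Bcl3*: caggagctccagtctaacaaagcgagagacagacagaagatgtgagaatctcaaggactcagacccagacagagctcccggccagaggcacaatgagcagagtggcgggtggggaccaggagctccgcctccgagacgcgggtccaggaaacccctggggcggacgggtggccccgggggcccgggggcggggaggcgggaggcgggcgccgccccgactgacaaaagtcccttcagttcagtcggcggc
*Nfkbia*: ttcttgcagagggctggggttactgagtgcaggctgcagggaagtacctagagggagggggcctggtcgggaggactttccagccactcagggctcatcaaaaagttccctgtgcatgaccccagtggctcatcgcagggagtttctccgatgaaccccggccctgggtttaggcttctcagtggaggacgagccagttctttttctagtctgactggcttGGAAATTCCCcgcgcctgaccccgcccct
*Nfkb2*: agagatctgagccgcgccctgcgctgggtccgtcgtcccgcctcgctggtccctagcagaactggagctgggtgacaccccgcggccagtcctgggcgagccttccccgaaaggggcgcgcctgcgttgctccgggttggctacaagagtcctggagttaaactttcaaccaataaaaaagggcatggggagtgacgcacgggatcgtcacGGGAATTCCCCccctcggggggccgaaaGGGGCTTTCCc
*Rel*: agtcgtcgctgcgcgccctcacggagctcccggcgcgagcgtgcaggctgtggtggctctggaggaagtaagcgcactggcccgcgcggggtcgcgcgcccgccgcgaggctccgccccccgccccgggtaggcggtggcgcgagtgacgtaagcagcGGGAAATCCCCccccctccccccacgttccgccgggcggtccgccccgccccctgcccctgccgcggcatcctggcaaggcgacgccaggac

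Among the pathway genes that passed, 7 genes had 8 windows, of which 4 held the κB motif (*Il1r1*, *Cxcl10*, *Tnip1* and *Ier3*) and 2 the IRF element (*Cxcl10* and *Tnfrsf1b*). Of the 84 windows of all tested pathway genes, 17.9% held the κB motif and 5.95% the IRF element. *Tnip1*, which rose, and *Cxcl10*, the gene that fell, are shown for comparison, from chr11:54962941-54963190 and chr5:92348890-92349139 (both minus strand). Capitals mark κB matches and, in *Cxcl10*, also the IRF element, the first capital run.
*Tnip1*: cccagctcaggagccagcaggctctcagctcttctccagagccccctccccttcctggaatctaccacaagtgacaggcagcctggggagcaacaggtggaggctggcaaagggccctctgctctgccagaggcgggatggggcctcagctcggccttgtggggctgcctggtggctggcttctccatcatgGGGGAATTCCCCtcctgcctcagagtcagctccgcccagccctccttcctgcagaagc
*Cxcl10*: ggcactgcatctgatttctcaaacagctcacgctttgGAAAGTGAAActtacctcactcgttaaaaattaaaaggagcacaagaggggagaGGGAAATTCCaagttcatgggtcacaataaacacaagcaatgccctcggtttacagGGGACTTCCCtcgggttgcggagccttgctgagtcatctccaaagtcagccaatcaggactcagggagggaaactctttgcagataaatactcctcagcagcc

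Marker lists were read beside these results, because genes listed for other cell types and for HSC state also moved with genotype. Of 10 HSC genes, *Procr* and *Fgd5* rose and *Ly6a*, which encodes the Sca1 antigen of the sort, fell. The fall of *Ly6a* was lost without WT library 3 (limma adjusted P = 0.0786) and without *Irf1-/-* library 2 (0.115) or 4 (0.112). The summed HSC level was 203301, 208121 and 189345 normalized counts in WT libraries and 202879, 226179 and 206319 in *Irf1-/-* libraries, with *Kit* the most abundant gene. Of 5 megakaryocyte genes, *Pf4* and *Gp1ba* fell, *Gp1ba* not without WT library 3 (limma adjusted P = 0.077) or *Irf1-/-* library 2 (0.0643) or 3 (0.0585). Their list summed to 46828, 60085 and 44769 in WT and to 40098, 24837 and 35733 in *Irf1-/-* libraries, mostly from *Itga2b*. *Itga2b* itself passed in limma without WT library 4 (log2 fold change −0.67, adjusted P = 0.0449), but not with it (−0.56, limma adjusted P = 0.0922). For the summed list, *Irf1-/-* libraries 3 and 4 were the lowest, and they were the highest for *Bcl3*. Whether the megakaryocyte genes have a part in the difference of *Bcl3* was not tested.

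The 7 granulocyte genes summed to 6385, 4944 and 12035 in WT and to 7767, 8052 and 10409 in *Irf1-/-* libraries, with *Prtn3* the most abundant. *Prtn3* rose, though not without WT library 3 (limma adjusted P = 0.13) or *Irf1-/-* library 2 (0.0619) or 4 (0.17). *Ngp* passed without WT library 4 (log2 fold change 1.67, limma adjusted P = 0.0449), but not with it (−0.49, limma adjusted P = 0.907). *Ly6g*, a defining marker of neutrophils, was at 0 in WT libraries 2 and 3 and in *Irf1-/-* libraries 3 and 4. Of 5 endothelial and stromal genes, *Emcn* rose, and the list summed to 1568, 1591 and 1520 in WT and to 2219, 2399 and 2204 in *Irf1-/-* libraries, mostly from *Emcn*. None of the 5 was at 0 in any library, but *Cdh5*, *Cxcl12*, *Lepr* and *Col1a1* had no value above 116.2 and did not pass. Of 11 immediate-early and heat-shock genes, which cell handling can induce, *Egr1* rose. That list summed to 26946, 28980 and 22907 in WT and to 33048, 28088 and 33117 in *Irf1-/-* libraries, with *Ier2* the most abundant. The part of these genes in the differences of *Bcl3* and of the pathway genes was not tested. In limma without the intensity trend, no marker gene named above as rising or falling passed. The limma adjusted P of these marker genes then ran from 0.0511 (*Fgd5* and *Egr1*) to 0.33 (*Prtn3*).

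In the remaining lists, summed levels ran from 2642 to 3077 for 5 B cell genes, led by *Cd79b*, from 2696 to 3725 for 5 T and NK cell genes, led by *Nkg7*, and from 1461 to 2642 for 6 monocyte and macrophage genes, led on average by *C1qb*. *Nkg7* was lower in all *Irf1-/-* libraries (2174 to 2622) than in any WT library (2895 to 3209) and did not pass (limma adjusted P = 0.0894). The 6 erythroid genes summed to 26.9 to 79.5, and their 4 hemoglobin genes were at 0 in all 6 libraries.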

How the data were processed

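RNA of sorted HSCs from 3 WT and 3 *Irf1-/-* mice was made into cDNA libraries and sequenced with paired ends. The signal values are normalized counts per gene as the authors deposited them: reads were trimmed (Trim Galore), aligned (HISAT2, mm39 in the submitters' processing notes), counted per gene (Htseq-count) and scaled in DESeq2 by a single factor for each library. The sources used here give no versions of these single tools, and no annotation or strand setting. Each value was divided by the smallest value of its library, which gave whole reads for 100% of values within a tolerance of 0.01. Replicates carry the numbers of the sample descriptions.

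Genes whose normalized counts averaged 10 or more were fitted with limma 3.58.1 (R 4.3.3; intensity trend) on log2(normalized count + 1), with genotype as the only term, and P values were adjusted by Benjamini-Hochberg over 17404 genes. A gene passed at an adjusted P under 0.05, and a passing gene was called when its log2 fold change exceeded 0.58 in size. The alternatives were pseudocounts of 0.5 and 5, no filter or a filter at 50, limma without the trend, quantile normalization, median centring, a replicate block, edgeR 4.0.16 and DESeq2 1.42.0 on the recovered reads, and leaving out each library. Figures were drawn with matplotlib 3.10.9 under Python 3.11.15.

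The NF-κB genes and all lists were chosen with earlier results of these data known. Genes are named by rule: the 10 NF-κB genes, *Irf1*, pathway genes that passed, in each pathway list the 2 tested genes with the largest absolute log2 fold change and the gene with the highest mean, and the 5 genes closest to each NF-κB gene that passed, among those with a mean of at least 100. Cell type lists covered HSC, B cell, T and NK cell, granulocyte, monocyte and macrophage, erythroid, megakaryocyte, endothelial and stromal, and immediate-early and heat-shock genes. Transcript lengths are those of the longest coding transcript in GENCODE vM1. Gene order and promoter sequence are from RefSeq on GRCm38.p6, an older assembly than that of the alignment. Promoter matches are of letters alone.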

Additional observations from a re-analysis of the deposited data

How the results depend on the processing

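Over the 10 NF-κB genes and 16 alternatives, 151 of 160 log2 fold changes kept their direction and their side of the threshold. Limma without the trend called and passed 0 of the 10 genes and called and passed 0 of the 87 pathway genes, where 40 of all genes passed in place of 561; with the trend, 2 of the 10 genes and 17 of the 87 had an unadjusted P under 0.05. DESeq2 passed 2 of the 10 genes and 13 of the pathway genes (1282 of all genes), and edgeR 1 and 9. Leaving out 1 library gave 1 to 1 called and 1 to 1 passed of the 10 genes, 0 to 3 called pathway genes and 1 to 10 passed pathway genes. Over all genes, 309, 273 and 992 passed without WT library 2, 3 or 4, and 291, 486 and 230 without *Irf1-/-* library 2, 3 or 4. The adjusted P of *Bcl3* ran from 0.00132 to 0.0154 over these limma fits.

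The log2 fold change of *Nfkbia* turned to 0.0306 under quantile normalization, and under median centring that of *Nfkbie* turned to −0.025 and that of *Ikbkb* to −0.00764. Without 1 library, the values ran from −0.0943 to 0.16 for *Nfkb2*, from −0.239 to 0.0911 for *Rel*, from −0.0491 to 0.0028 for *Nfkbia*, from −0.00811 to 0.0223 for *Nfkbie*, from −0.0904 to 0.0942 for *Ikbkb* and from −0.0611 to 0.199 for *Myc*. The cause was not tested.

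With a replicate block, 1 of the 10 genes and 10 pathway genes passed, and 1075 of all genes. The same-numbered libraries share only a number as far as the labels show, and their deviations from the genotype means correlated at −0.094, 0.246 and 0.147 across genes, which are not independent replicates; differently numbered libraries correlated at −0.326 to 0.251.

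With 3 libraries per genotype, the 95% confidence interval of *Rel*, from −0.43 to 0.29, leaves room for a difference in either direction. Gene totals do not separate isoforms, precursor and processed proteins such as p105 and p50, or protein location. *Nfkbiz* had the fewest reads of the 10 genes, 301 to 570 per library.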
